A study of Homo sapiens with 32 samples.

Results

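The collagen genes were taken as every gene symbol made of COL, a type number, A and a chain number, which gave 44 of the 28278 symbols in the count tables. The same 44 genes were found by Ensembl identifier among the 60199 genes of the knockdown table. By the kind of assembly that their chains form they are 11 fibrillar, 6 basement membrane and 27 other collagens. All samples are Ewing sarcoma cell lines. A673 carries the EWS::FLI1 fusion and was sequenced in 4 experiments. In experiments 1 and 2 the STAG2-proficient cells were 2 libraries each of an unedited clone with an inducible Cas9 (WT clone, genotype iCas9) and 1 library each of the parental line, 6 in all, and the STAG2 KO cells (iCas9 with a STAG2 knockout) were 2 and 3 libraries. Experiment 2 also held 3 EZH2 KO and 3 SUZ12 KO libraries, and experiment 3 held 3 STAG1 KO, 1 WT clone and 1 parental library, with iCas9 in all KO cells. The controls hold a single unedited clone and its parent. In experiment 4, A673 cells without Cas9 received siRNA against STAG2 (siSTAG2, 3 libraries) or a mock transfection (siC, 3 libraries). SK-N-MC with iCas9 was compared with its STAG2 KO, with 1 library each. A4573 with iCas9 was compared with its derivative in which STAG2 had been repaired (STAG2 KI), also with 1 library each. By the description of the study, A4573 itself makes no STAG2 protein.

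Collagens are secreted or membrane proteins built of 3 chains wound into a triple helix. Fibrillar collagens form the cables of skin, bone, tendon and cartilage, and type IV collagen forms the sheet-like network of basement membranes. Type VI forms beaded microfilaments, type VII anchors epithelia to the stroma, fibril-associated (FACIT) collagens sit on the surface of fibrils, and a further group spans the cell membrane. Chains are hydroxylated, folded and exported by dedicated enzymes and chaperones, trimmed by proteinases outside the cell and cross-linked by lysyl oxidases. STAG2 and STAG1 are alternative subunits of cohesin, the ring complex that folds chromatin into loops. EZH2 and SUZ12 are subunits of Polycomb repressive complex 2 (PRC2), which methylates histone H3 at silent genes.

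The A673 clone libraries held 15734628 to 20663679 counts, the isogenic libraries 29322507 to 32261248, and the knockdown libraries 6852340 to 8184632 recovered reads. STAG2 had 247 to 346 CPM (counts scaled to library size by TMM) in STAG2-proficient libraries of experiments 1 and 2 and 43.4 to 188 in STAG2 KO libraries, the highest of these in the library labelled 24 of experiment 1. STAG1 had 68.2 and 57.0 CPM in the controls of experiment 3 and 61.9, 15.02 and 32.7 in the STAG1 KO libraries labelled 1, 5 and 7, so the library labelled 1 was at the level of the controls. In experiment 2 EZH2 had 165 to 187 CPM in controls and 28.5 to 56.1 in EZH2 KO libraries, and SUZ12 had 57.6 to 64.3 in controls and 11.2 to 20.7 in SUZ12 KO libraries. After knockdown STAG2 had 144 to 179.9 normalized reads, and 992 to 1090 in siC libraries. In SK-N-MC the STAG2 transcript was at 293 CPM before and 184 CPM after editing, and in A4573 it was at 34.1 CPM without and 86.9 CPM with the repair. Of the Ewing sarcoma genes NR0B1, NKX2-2, STEAP1 and PRKCB, the lowest level in any of the 26 count libraries was 25.4 CPM. CD99 was listed at 0 in all of these and had 3723 to 6707 normalized reads in the knockdown. Of 5 markers of blood, endothelial and epithelial cells (PTPRC, PECAM1, CDH5, EPCAM and KRT5), none had more than 4.13 CPM in an A673 clone library. Both WT clone libraries of experiment 1 were nearly as close as sampling noise allows. Their mean chi-square per gene, which counting error alone puts at 1, was 1.33 over 13967 genes. It was 9.41 to 140 in all other pairs of a group in experiments 1 to 3. The counts of called members in STAG2 KO cells and between WT clone and parental are therefore also given with these 2 libraries summed into 1. Fits within experiment 1 alone were not repeated in this way. In bulk RNA, fewer cells that express a gene and less of its RNA per cell cannot be told apart.

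In STAG2-proficient A673 cells, chains of types I, III, V, VI and XXI were the most abundant collagen transcripts. Over the 8 control libraries of experiments 1 to 3, 22 of the 44 members had a median of at least 5 CPM, and 12 had at most 3 counts in each library. Levels of different genes were compared as CPM per kilobase of exon. On this scale COL1A2, the α2 chain of type I collagen, was highest in each of the 8 libraries, with a median of 125 (49.7 to 176). COL5A2 (49.5), COL3A1 (46.0), COL6A1 (32.8) and COL21A1 (30.5) followed, and as the ranges of these 4 overlapped, their order is not separated from the spread over libraries. With the length of the longest transcript in place of all exons, COL4A2 moved from rank 7 to rank 2 and COL6A1 from rank 4 to rank 7, while COL1A2 stayed first. COL1A1, the partner chain of COL1A2, had a median of 14.1 CPM per kilobase (5.93 to 33.7).

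The other lines used other members. SK-N-MC had 60.2 CPM per kilobase of COL5A1, 48.4 of COL1A2 and 43.2 of COL9A2, its highest 3. A4573 with STAG2 had 133 of COL21A1, 48.4 of COL6A1 and 31.9 of COL6A2, and nearly no COL1A2. COL4A5, a basement membrane chain with at most 3 counts in each A673 control library, had 105 CPM in A4573 with STAG2.

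The summed level of the 44 collagens was 2529 to 4939 CPM (mean 3988 ± 899, SD, n = 6) in STAG2-proficient libraries of experiments 1 and 2 and 1009 to 2287 CPM (1809 ± 485, SD, n = 5) in STAG2 KO libraries. These groups did not overlap. Fibrillar collagens had 2479 ± 637 and 906 ± 279 CPM, basement membrane collagens 661 ± 89.0 and 443 ± 80.6 CPM, and the other collagens 847 ± 232 and 459 ± 191 CPM in these groups. EZH2 KO libraries summed to 1852 to 3173 CPM and SUZ12 KO libraries to 1642 to 2339 CPM. STAG1 KO libraries lay at the other end, with 6470 to 7501 CPM against 4427 and 5052 in their controls. COL1A2 alone gave 21.3 to 33.2% of the sum in the 6 STAG2-proficient libraries and 1.29 to 11.1% in the 5 STAG2 KO libraries.

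**Figure D1:**
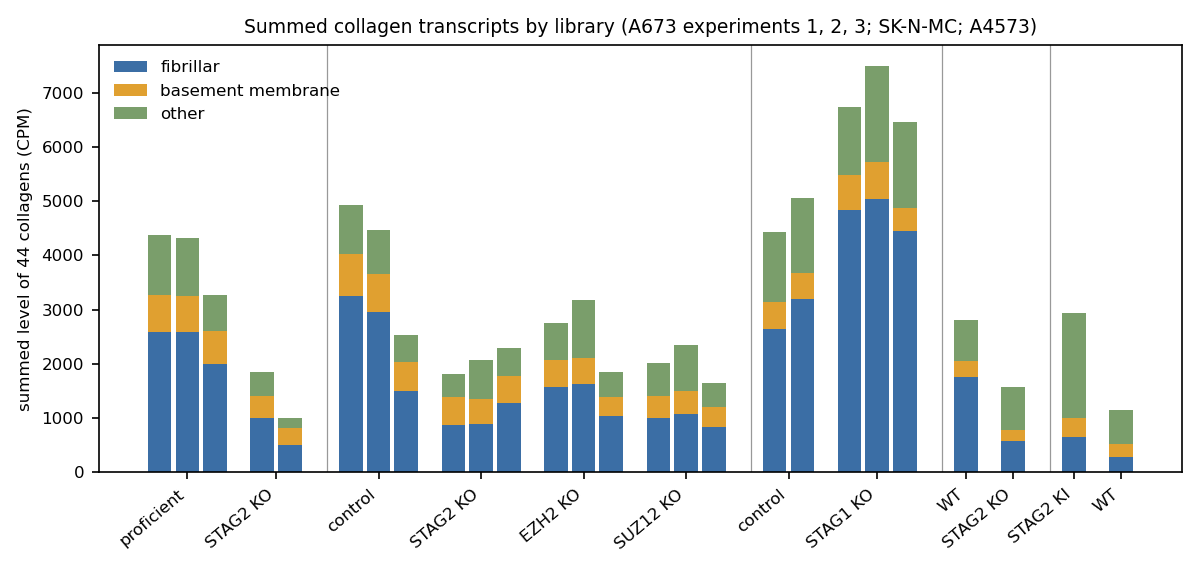
Summed level of the 44 collagens (CPM) in each of the 26 libraries with counts, split into fibrillar, basement membrane and other collagens, with vertical lines between A673 experiments 1, 2 and 3, SK-N-MC and A4573. The 5 STAG2 KO libraries of A673 span 1009 to 2287 CPM and the 3 STAG1 KO libraries 6470 to 7501 CPM.

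The sequence before the transcription start is shown for 4 members that moved steeply in the comparisons and for COL4A1, which starts head to head with COL4A2. RefSeq windows of 300 bases, 250 of them before a start on GRCh38.p14, matched 32 of the 44 members, and COL1A1, COL1A2, COL2A1, COL3A1, COL5A2, COL6A1, COL6A5, COL8A1, COL9A3, COL14A1, COL20A1 and COL22A1 had no entry. The first 250 bases are printed 5′ to 3′ along the gene, with each CG dinucleotide in capitals. COL6A3 lay at chr2:237414165-237414414 (− strand), COL26A1 at chr7:101362625-101362874 (+ strand), COL4A5 at chrX:108439588-108439837 (+ strand), COL15A1 at chr9:98943657-98943906 (+ strand) and COL4A1 at chr13:110307158-110307407 (− strand).
COL6A3: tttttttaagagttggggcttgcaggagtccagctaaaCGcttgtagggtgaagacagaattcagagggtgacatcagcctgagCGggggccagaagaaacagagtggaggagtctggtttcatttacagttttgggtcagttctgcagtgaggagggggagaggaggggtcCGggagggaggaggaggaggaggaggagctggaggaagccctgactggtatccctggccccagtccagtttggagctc
COL26A1: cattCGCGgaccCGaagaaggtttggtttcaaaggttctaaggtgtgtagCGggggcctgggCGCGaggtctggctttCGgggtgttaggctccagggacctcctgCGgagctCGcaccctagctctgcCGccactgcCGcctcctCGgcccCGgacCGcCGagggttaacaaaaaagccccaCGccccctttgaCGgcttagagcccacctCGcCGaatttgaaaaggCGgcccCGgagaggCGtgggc
COL4A5: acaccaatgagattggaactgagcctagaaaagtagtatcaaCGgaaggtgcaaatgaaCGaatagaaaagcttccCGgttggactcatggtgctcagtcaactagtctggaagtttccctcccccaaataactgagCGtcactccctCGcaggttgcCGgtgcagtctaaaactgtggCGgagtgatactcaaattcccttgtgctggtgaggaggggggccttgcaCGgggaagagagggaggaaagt
COL15A1: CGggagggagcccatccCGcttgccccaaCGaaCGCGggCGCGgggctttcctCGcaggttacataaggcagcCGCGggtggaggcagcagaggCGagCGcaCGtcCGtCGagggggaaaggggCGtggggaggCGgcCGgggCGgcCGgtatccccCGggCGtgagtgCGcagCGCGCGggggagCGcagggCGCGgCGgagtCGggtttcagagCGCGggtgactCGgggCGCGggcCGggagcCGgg
COL4A1: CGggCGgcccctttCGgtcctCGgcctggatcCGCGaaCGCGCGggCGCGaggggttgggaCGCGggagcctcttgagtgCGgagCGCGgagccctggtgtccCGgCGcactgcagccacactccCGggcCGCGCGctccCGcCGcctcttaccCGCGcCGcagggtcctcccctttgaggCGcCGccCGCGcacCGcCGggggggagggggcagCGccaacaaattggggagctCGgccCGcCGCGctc
These stretches ranged from 3 CG in COL6A3 and 8 in COL4A5 to 22 in COL26A1 and 38 each in COL15A1 and COL4A1. COL4A1 and COL4A2 lie on chromosome 13, and COL4A5 and COL4A6 start head to head on chromosome X. The 32 matched members had 44 windows, as a gene can have several starts, and 30 of these (68.2%) held at least 10 CG, where 56.4% of 35116 windows of all genes did. GGAA repeated 2 times with no base between, a short form of the repeat that EWS::FLI1 binds, was searched on both strands and was in 0 of the 44 collagen windows and in 3.67% of all windows.

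Several collagen transcripts fell in STAG2 KO cells. Of the 26 members with enough counts to be tested, 13 were lower at an adjusted p under 0.05, where 5.76% of all 13574 genes in the test were lower. Type VI, type I and type V chains, the cartilage collagen COL2A1, the anchoring fibril collagen COL7A1, COL16A1, COL13A1, COL4A2 and COL26A1 made up the 13. No member was higher at an adjusted p under 0.05 by edgeR or DESeq2, where 6.67% of all genes were higher by edgeR. At an unadjusted p under 0.05 none was higher either (0 of 26), where 3607 of all 13574 genes passed in both directions together. By class the 13 were 5 of 9 fibrillar, 1 of 2 basement membrane and 7 of 15 other members tested. The log2 fold change was negative for 24 of the 26, with a median of −0.91, and the median over all genes was 0.04. COL2A1 passed the filter on low counts only through the STAG2-proficient libraries, and of the 25 other members tested 12 were lower. The remaining 18 members were not tested.

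COL1A2 (ENSG00000164692, chromosome 7, 94394895 to 94431227, + strand, GRCh38) had 538, 1214 and 1437 CPM at the lowest, median and highest in STAG2-proficient libraries. In STAG2 KO libraries it had 192 and 13.0 CPM in those labelled 5 and 24 of experiment 1, and 124, 230.0 and 197 in those labelled 3, 5 and 2 of experiment 2. The groups did not overlap, and the KO libraries spread over more than an order of magnitude (log2 fold change −2.97, SE 0.6, adjusted p = 0.00859 from edgeR). COL1A1 (ENSG00000108821, chromosome 17, 50184101 to 50201632, − strand), the α1 chain with which it assembles, had 114, 148 and 304 CPM at the lowest, median and highest in STAG2-proficient libraries and 92.0, 90.03, 70.3, 13.8 and 44.03 CPM in the KO libraries in the same order. These groups did not overlap either (−1.55, SE 0.455, adjusted p = 0.0472). Among the KO libraries, COL1A1 was lowest in the library labelled 5 of experiment 2, where COL1A2 was highest, and COL1A2 was lowest in that labelled 24.

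All of the 3 chains of type VI collagen that were tested fell. COL6A3 (ENSG00000163359, chromosome 2, 237324003 to 237414328, − strand), the long α3 chain, had 4.46 to 8.23 CPM (median 5.88) in STAG2-proficient libraries and 1.07, 0.346, 0.688, 0.319 and 0.557 CPM in the KO libraries, with no overlap (−3.34, SE 0.351, adjusted p = 0.000238). COL6A1 had 69.9, 157 and 212 CPM at the lowest, median and highest in STAG2-proficient libraries and 43.8, 24.1, 22.3, 99.3 and 32.7 CPM in the KO libraries (−1.75, SE 0.447, adjusted p = 0.0262). Among the KO libraries only that labelled 5 of experiment 2 reached the range of the controls. COL6A2, its neighbour on chromosome 21, had 74.2 to 174 CPM (median 116) in STAG2-proficient and 40.5, 9.22, 32.0, 61.1 and 33.6 CPM in KO libraries, with no overlap (−1.84, SE 0.428, adjusted p = 0.0169).

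Of the type V chains, which nucleate fibrils, COL5A1 had 142 to 256 CPM (median 223) in STAG2-proficient libraries and 77.1, 68.4, 97.0, 85.2 and 101 CPM in the KO libraries. The KO libraries were close to each other and did not overlap with the controls (−1.31, SE 0.198, adjusted p = 0.00171). COL5A2 fell by 0.99 on the log2 scale (SE 0.274, adjusted p = 0.0372), with 318 to 570.4 CPM in STAG2-proficient and 255, 85.8, 219.5, 199.8 and 355 CPM in KO libraries, which overlapped. COL5A3 had a log2 fold change of −0.82 with an adjusted p of 0.421. COL3A1, the chain of type III collagen, lies next to COL5A2 on chromosome 2. Its levels of 241 to 668 CPM in STAG2-proficient and 90.7 to 464 CPM in KO libraries overlapped (−0.66, adjusted p = 0.202).

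COL26A1 (ENSG00000160963, chromosome 7, 101362875 to 101559024, + strand) had 5.40 to 15.2 CPM (median 10.4) in STAG2-proficient libraries and 1.18, 0, 1.48, 3.46 and 0.779 CPM in KO libraries (−3.08, SE 0.71, adjusted p = 0.016). These groups did not overlap. COL2A1 had 0.752 to 4.74 CPM in STAG2-proficient and 0.278 to 0.403 CPM in KO libraries (−3.32, SE 0.451). As it passed the filter on low counts only through the STAG2-proficient libraries, no p-value is given for it. COL7A1 had 16.2 to 49.1 and 3.76 to 12.4 CPM (−1.55, adjusted p = 0.00262), and COL16A1, a FACIT collagen, had 123.3 to 236 and 4.90 to 117 CPM (−1.76, adjusted p = 0.0442), again with no overlap. COL13A1, a membrane collagen, had 3.44 to 13.4 CPM in STAG2-proficient and 1.12, 1.27, 0.741, 4.74 and 0.779 CPM in KO libraries, and only the library labelled 5 of experiment 2 overlapped (−2.09, adjusted p = 0.0444). COL4A2 fell by 0.73 (SE 0.149, adjusted p = 0.00918), with 353 to 521 CPM in STAG2-proficient and 205 to 334 CPM in KO libraries. Its head-to-head partner COL4A1 had a log2 fold change of −0.43 (adjusted p = 0.137).

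**Figure D2:**
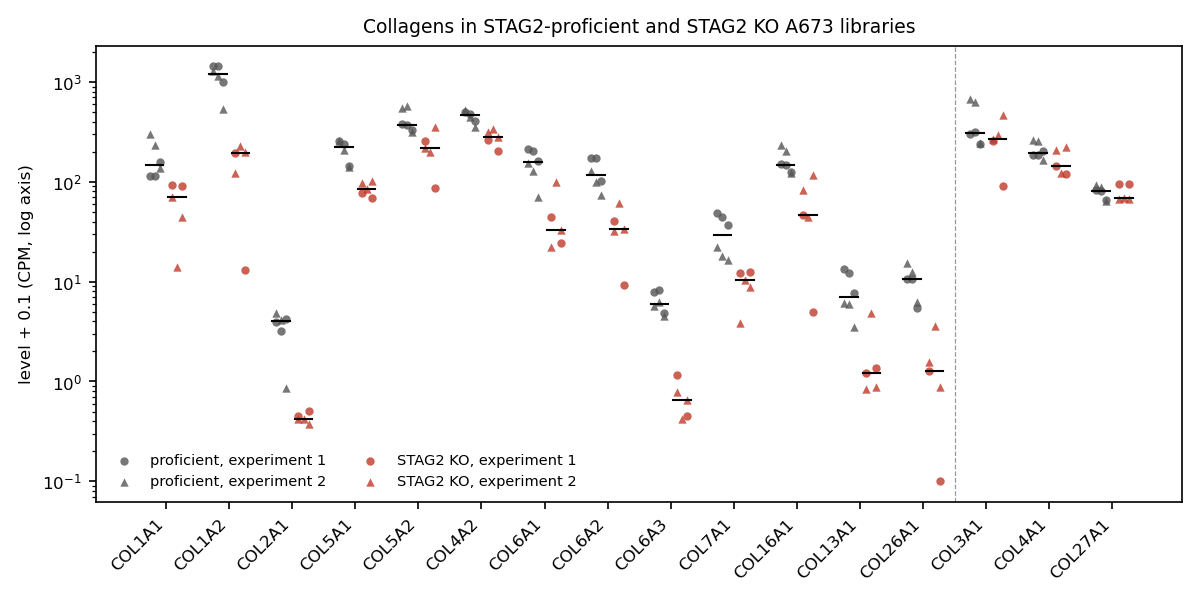
Level of 16 collagens (CPM plus 0.1, log axis) in each of the 6 STAG2-proficient (grey) and 5 STAG2 KO (red) A673 libraries, circles for experiment 1, triangles for experiment 2 and bars at the medians, with the 13 members called lower left of the dashed line. COL5A1 and COL6A3 separate between groups, whereas COL1A2 and COL16A1 spread widely among the KO libraries.

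Some members that were not called varied widely between STAG2 KO libraries. COL18A1, whose fragment is endostatin, had 46.4, 2.82, 4.93, 19.4 and 57.8 CPM in the KO libraries and 13.9 to 47.6 CPM in STAG2-proficient libraries (−0.30, adjusted p = 0.834). COL12A1, a FACIT collagen, had 9.23, 4.84, 50.5, 90.8 and 19.0 CPM in KO libraries and 21.0 to 40.4 CPM in STAG2-proficient libraries (−0.48, adjusted p = 0.617). COL27A1, a fibrillar collagen of cartilage, had 67.2 to 95.0 and 64.6 to 93.5 CPM (−0.03, adjusted p = 0.927). COL12A1 was lower within experiment 1 (−1.91, adjusted p = 0.0161) and had a log2 fold change of 0.46 (adjusted p = 0.591) within experiment 2. Within experiment 1 the fold changes of all 13 called members were negative, from −3.92 (COL26A1) to −0.54 (COL1A1), and 11 members were called, 9 of them among the 13. Of all 14145 genes in that fit 3663 were called. Its control libraries include the near-identical WT clone libraries, which were not summed here, so its p-values rest in part on a spread near counting noise. Within experiment 2 the fold changes of the 13 were negative too, from −3.38 (COL6A3) to −0.52 (COL4A2). There 3 members were called, COL1A2, COL5A1 and COL6A3, beside 494 of all 13383 genes. A test of the difference between experiments called 0 of the 26 members in edgeR, while 5 had an unadjusted p under 0.05. It called 0 of all 13574 genes, of which 4150 had an unadjusted p under 0.05, so the 0 is not particular to the collagens. COL5A1 and COL6A3 were called in each of the 19 alternative fits, COL1A1 in 5, COL13A1 and COL16A1 in 7 and COL5A2 in 9 of them. Without WT clone library 1 of experiment 2 the count went from 13 to 8, and without the KO library labelled 24, whose STAG2 level was the highest of the 5, it was 10. Over all genes these fits called 1053 of 13467 and 1382 of 13816, in place of 1687 of 13574. With the near-identical WT clone libraries of experiment 1 summed into 1, 9 of the 13 were called, and COL1A1, COL5A2, COL13A1 and COL16A1 were not (adjusted p = 0.0538, 0.0693, 0.0763 and 0.0761). Over all genes that fit called 1154 of 13411.

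Of 35 genes for collagen synthesis, 31 were tested in STAG2 KO cells, and 6 were lower and 1 higher, beside 5.76% and 6.67% of all genes. ADAMTS14, which removes the N-propeptide, fell by 2.92 on the log2 scale (adjusted p = 0.0147), and CREB3L1, a transcription factor of the secretory pathway, fell by 2.78 (adjusted p = 0.00817). PLOD2, a lysyl hydroxylase, rose by 0.61 (adjusted p = 0.0356), while PLOD1, another, fell by 0.57 (adjusted p = 0.0418). Of 7 collagen receptor genes, 6 were tested. Integrin α1 (ITGA1) was lower (−1.75, adjusted p = 0.00984) and integrin α2 (ITGA2) higher (3.13, adjusted p = 0.0199). Of 10 genes typical of mesenchymal cells 9 were tested, with 5 lower and 1 higher. Their summed level, most of it from FN1 (fibronectin) in the controls, was 6074 to 10157 CPM in STAG2-proficient and 1186 to 3979 CPM in KO libraries. DCN was at 0 in at least 1 KO library and FAP in at least 1 library of each group, and the part of these genes in the collagen result was not tested.

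Knockdown of STAG2 was measured in cells that had not been cloned. Of 21 members that passed a mean of 10 normalized reads, 12 fell, where 11% of all 12060 genes in the test were lower, and 1 rose, where 9.54% were higher. Those that fell were 6 of 7 fibrillar and 6 of 12 other collagens tested, and of the 2 basement membrane chains tested 1 rose and 1 was not called. The median log2 fold change was −0.46, and that of all genes 0.01. Of the 13 members lower in STAG2 KO clones and the 12 lower after knockdown, 9 were shared (69.2% and 75% of each list), namely COL1A1, COL1A2, COL5A1, COL5A2, COL6A1, COL6A2, COL13A1, COL16A1 and COL26A1. These experiments share no library. The overlap of the lower genes among all genes was not counted, so the 9 are not set against genes in general.

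COL1A1 had 904, 816 and 689 normalized reads in siC libraries 1 to 3 and 202, 223 and 224 in siSTAG2 libraries 1 to 3. With no overlap, this was a log2 fold change of −1.88 (SE 0.0893, adjusted p = 2.36e-14 from limma). COL1A2 had 2735, 2267 and 2794 and 1014, 1048 and 999 (−1.34, SE 0.0682, adjusted p = 7.39e-14). COL6A1 had 661 to 703 and 331 to 383 (−0.96, adjusted p = 3.95e-10), and COL5A1 had 631 to 696 and 332 to 366 (−0.93, adjusted p = 6.73e-10). All 4 chains were lower in each siSTAG2 library than in any siC library. Smaller falls were called for COL5A3 (−0.83), COL6A2 (−0.79), COL16A1 (−0.50), COL5A2 (−0.48), COL21A1 (−0.43) and COL3A1 (−0.41). COL26A1 had 26.6 to 35.4 and 2.90 to 11.1 normalized reads (−2.42, SE 0.391, adjusted p = 4.91e-05), and COL13A1 had 25.6 to 46.9 and 8.88 to 24.1 (−1.11, adjusted p = 0.0114). COL4A1 was higher, with 205 to 234 in siC and 266 to 278 in siSTAG2 libraries (0.32, SE 0.0931, adjusted p = 0.0145), while its partner COL4A2 had a log2 fold change of 0.08 (adjusted p = 0.586). COL6A3 had at most 3.94 normalized reads and was not tested.

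Of 26 synthesis genes tested after knockdown, 10 were lower and 1 was higher, beside 11% and 9.54% of all genes. CREB3L1 (−1.21, adjusted p = 1.85e-11) and PCOLCE, which speeds removal of the C-propeptide (−0.87, adjusted p = 1.63e-10), fell most, and P3H2, a prolyl 3-hydroxylase, rose by 0.41 (adjusted p = 0.00994). Of 4 receptor genes tested, ITGA1 was lower (−0.99, adjusted p = 0.00416). The summed level of the 10 mesenchymal genes was 15777 to 18926 normalized reads in siC and 9838 to 10457 in siSTAG2 libraries, and its part in the collagen result was not tested.

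In SK-N-MC, 15 of the 38 members compared were more than 2-fold lower in the STAG2 KO library, beside 11.4% of all 16413 genes compared, and 8 were more than 2-fold higher, beside 10.2%. With 1 library per state these values have no replicate check. COL1A2 had 524 CPM in the WT and 17.4 in the KO library (log2 fold change −4.91), and COL1A1 had 189 and 163 CPM (−0.22). COL19A1, a FACIT collagen, went from 128 to 15.4 CPM (−3.05), COL9A2 from 182 to 31.6 CPM (−2.53) and COL5A1 from 672 to 131 CPM (−2.35). Higher in the KO were COL18A1 (13.3 to 96.6 CPM, 2.86), COL6A2 (30.4 to 117 CPM, 1.95) and COL16A1 (125 to 299 CPM, 1.26). COL6A2 and COL16A1 were thus on the other side than in A673 cells. PTPRC, the blood cell antigen CD45, had 3.004 CPM in the WT and 58.2 in the KO library, EPCAM had 0.819 and 9.36, and FN1 had 4020 and 113, and their part in these differences was not tested. Of 35 synthesis genes 5 were lower and 4 higher, from TLL1, a C-proteinase (−4.81), and the chaperone FKBP10 (−4.49) to LOXL1, a lysyl oxidase (1.95), and TMEM38B, a channel of the endoplasmic reticulum (2.06). Of 7 receptor genes the kinase DDR2 alone passed 2-fold, at 3.08.

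In A4573, 20 of the 33 members compared were more than 2-fold lower in the cells without STAG2 protein than in the STAG2 KI cells, beside 14.1% of all 16124 genes compared, and 3 were higher, beside 7.76%. COL21A1, the highest member there per kilobase, had 245 CPM without and 916 CPM with STAG2 (log2 fold change −1.90). COL6A2 had 28.5 and 170.3 CPM (−2.58), COL6A1 86.1 and 268 CPM (−1.64) and COL5A1 60.4 and 195 CPM (−1.69). COL18A1, which was higher in the SK-N-MC KO, had 54.6 CPM without and 148 CPM with STAG2 (−1.44). Of the basement membrane chains, COL4A5 had 67.1 and 105 CPM (−0.65) and COL4A6 5.78 and 8.44 CPM (−0.54), neither past 2-fold. COL1A2 had at most 3 counts in either library, and no fold is given. Of the 13 members lower in STAG2 KO A673 cells, 5 of 13 compared were past 2-fold lower in SK-N-MC and 9 of 11 compared in A4573. COL5A1 and COL13A1 were lower in all 4 STAG2 comparisons. Of 34 synthesis genes compared in A4573, 10 were lower, CREB3L1 (−3.27) and LOXL3, a lysyl oxidase (−2.85), most. Of 7 receptor genes 3 were lower, DDR2 (−2.31) and the integrin chains ITGA11 (−2.05) and ITGA2 (−1.02), and ITGA10 was higher (2.68). FN1 had 834 CPM without and 2506 CPM with STAG2, CDH5 0.332 and 0.0318 and EPCAM 0.564 and 2.01, and their part was not tested.

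**Figure D3:**
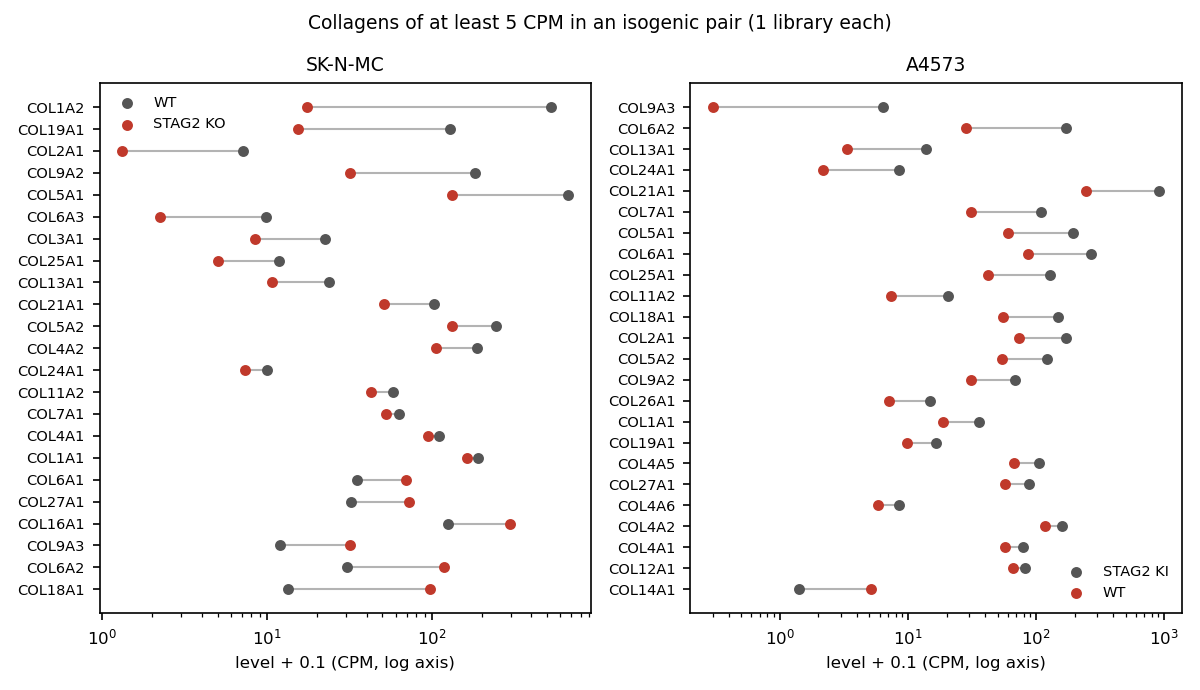
Level (CPM plus 0.1, log axis) of the collagens with at least 5 CPM in either library of a pair, 23 in SK-N-MC (grey WT, red STAG2 KO) and 24 in A4573 (grey STAG2 KI, red WT, which lacks STAG2 protein), ordered by the ratio with the lowest at the top. COL1A2 goes from 524 to 17.4 CPM in SK-N-MC, where COL18A1 goes the other way, and in A4573 only COL14A1 of the plotted genes is higher without STAG2.

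STAG1 KO cells had more of several chains. Of 28 members tested, 6 were higher, where 2.77% of all 14373 genes in the test were higher, and 1 was lower, where 2.5% were lower. Of the 9 fibrillar members tested 4 were higher. COL1A1 had 53.4 and 86.05 CPM in the parental and WT clone libraries and 1089, 436 and 528 CPM in the STAG1 KO libraries labelled 1, 5 and 7 (log2 fold change 3.27, SE 0.481, adjusted p = 0.0268). COL6A3 had 4.54 and 8.44 CPM in the controls and 23.6, 22.3 and 37.6 CPM in the KO libraries (2.09, SE 0.372, adjusted p = 0.0382). COL5A3 had 12.3 and 16.2 and 76.1, 43.3 and 51.3 CPM (1.98, SE 0.279, adjusted p = 0.0268). COL2A1 (1.59), COL16A1 (0.74) and COL5A2 (0.73) were higher as well. COL9A3, a chain of the cartilage FACIT collagen IX, was lower, with 69.1 and 76.5 and 46.3, 34.7 and 34.5 CPM (−0.94, SE 0.15, adjusted p = 0.0314). The groups of these 7 members did not overlap. As they were picked by their calls, and the groups hold only 3 and 2 libraries, this adds nothing to the calls. COL1A2 had 1543 and 1906 CPM in the controls and 2198, 2444 and 2256 CPM in the KO libraries (0.40, adjusted p = 0.119).

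Leaving out the STAG1 KO library labelled 1, whose STAG1 was at the level of the controls, gave 10 called members, 9 of them higher. Of all 14239 genes in that fit 746 were higher and 564 lower. Without the parental or without the WT clone library, a single control library is left and is assumed to vary like the KO libraries. No conclusion is drawn from the calls of these fits, and the 7 called members kept their direction in them. Without the KO library labelled 5 the count of called members was 2, and without that labelled 7 it was 3. Over all genes these fits called 264 of 14218 and 326 of 14123. Of 32 synthesis genes 3 were higher with all libraries in the test, beside 2.77% of all genes. These were LOXL2 by 1.21 (adjusted p = 0.0465), the cyclophilin PPIB by 0.91 (adjusted p = 0.0252) and LOXL1 by 0.68 (adjusted p = 0.0312). No receptor gene was called. Of the mesenchymal genes VIM was higher (0.44) and LUM lower (−5.08). LUM had 1 to 4 counts in the KO libraries and passed the filter on low counts only through the controls.

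The effects of losing STAG2 and of losing STAG1 were set against each other over 16 libraries. Of 29 members tested, 6 had effects that differed, beside 6.11% of all 14696 genes, and in each the STAG2 KO effect was the lower. The difference of log2 fold changes was −5.46 for COL6A3 (SE 0.578, adjusted p = 0.000125), −4.94 for COL2A1 and −4.86 for COL1A1 (SE 0.877, adjusted p = 0.00518). COL2A1, among the 6, passed the filter on low counts without any STAG2 KO library, so no p-value is given for it. The difference was −3.41 for COL1A2 (adjusted p = 0.0416), −1.93 for COL5A1 (adjusted p = 0.00644) and −1.76 for COL5A2 (adjusted p = 0.0322). The 6 are 5 fibrillar chains and the α3 chain of type VI. Since STAG1 KO was sequenced in experiment 3 alone, a difference between experiments cannot be told apart from it.

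Loss of PRC2 moved collagens both ways. Of 33 members tested in EZH2 KO cells, 11 were higher, where 12% of all 15130 genes in the test were higher, and 5 were lower, where 3.69% were lower. In SUZ12 KO cells 12 were higher, beside 14.7% of all genes, and 10 were lower, beside 5.87%. COL4A5, COL4A6, COL6A5, COL9A1, COL14A1, COL15A1 and COL28A1 passed the filter on low counts only through KO libraries, and 6 of these 7 were called in each comparison. Among the other 26 members tested, 5 were higher and 5 lower in EZH2 KO cells, and 6 were higher and 10 lower in SUZ12 KO cells. Both comparisons use the same 3 control libraries. A direct contrast of EZH2 KO with SUZ12 KO called 0 of 33 members in edgeR, with an unadjusted p under 0.05 for 5. It called 1 of all 15130 genes, with an unadjusted p under 0.05 for 629.

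Fibrillar chains with high levels in A673 were among those that fell. COL3A1 had 668, 624 and 244 CPM in the WT clone and parental libraries of experiment 2, 119.6, 146 and 19.4 CPM in EZH2 KO libraries and 23.7, 44.9 and 17.6 CPM in SUZ12 KO libraries. Neither KO overlapped with the controls. Its log2 fold change was −2.41 in EZH2 KO (SE 0.639, adjusted p = 0.0256) and −4.13 in SUZ12 KO cells (SE 0.691, adjusted p = 0.00163). COL1A2 had 1278, 1150 and 538 CPM in controls, 439, 385 and 154 CPM in EZH2 KO (−1.58, adjusted p = 0.0344) and 371, 387 and 177 CPM in SUZ12 KO libraries (−1.65, adjusted p = 0.023), again with no overlap. COL1A1 had 139 to 304 CPM in controls, 476 to 565 CPM in EZH2 KO (1.24, adjusted p = 0.0769) and 253 to 329 CPM in SUZ12 KO libraries (0.40, adjusted p = 0.538).

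Of the type V chains, COL5A1 and COL5A2 were lower in SUZ12 KO cells. COL5A2 had a log2 fold change of −1.56 there (adjusted p = 0.0108) and −1.10 in EZH2 KO cells (adjusted p = 0.0616). COL5A1 had −1.59 (adjusted p = 0.0156) and −1.09 (adjusted p = 0.0851). COL16A1 had 123.3 to 236 CPM in controls, 38.6, 46.7 and 38.9 CPM in SUZ12 KO (−2.16, adjusted p = 0.00577) and 127, 124 and 37.6 CPM in EZH2 KO libraries (−0.95, adjusted p = 0.165). Only 1 EZH2 KO library was thus as low as those of SUZ12 KO. COL26A1 had 6.13 to 15.2 CPM in controls, 1.05 to 1.39 CPM in EZH2 KO (−3.14, adjusted p = 0.00315) and 1.79 to 3.63 CPM in SUZ12 KO libraries (−2.08, adjusted p = 0.016). COL4A2 fell by 0.59 and 0.68 (adjusted p = 0.0331 and 0.0134), and COL4A1 had −0.57 (adjusted p = 0.168) in EZH2 KO and −0.90 (adjusted p = 0.0304) in SUZ12 KO cells. COL8A1, a short chain collagen, had 2.90 to 4.98 CPM in controls and at most 1.12 CPM in PRC2 KO libraries (−2.86, adjusted p = 0.019, in EZH2 KO and −2.27, adjusted p = 0.0359, in SUZ12 KO cells). COL27A1 was lower in SUZ12 KO cells (−0.74, adjusted p = 0.0157).

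The members that rose were mostly low or near 0 in the controls. COL6A3 had 5.66, 6.09 and 4.46 CPM in controls, 45.5, 26.0 and 18.9 CPM in EZH2 KO (2.50, SE 0.366, adjusted p = 0.00117) and 25.6, 38.5 and 19.7 CPM in SUZ12 KO libraries (2.39, SE 0.364, adjusted p = 0.000992). All 6 PRC2 KO libraries were above the controls. COL9A2 had 4.92 to 5.75 CPM in controls, 19.2 to 25.3 CPM in EZH2 KO (2.10, adjusted p = 0.00958) and 16.3 to 27.2 CPM in SUZ12 KO libraries (1.97, adjusted p = 0.01). COL25A1, a membrane collagen found in amyloid plaques, had 11.6 to 30.7, 55.9 to 79.9 and 54.7 to 77.2 CPM (1.64 and 1.56), with no overlap between KO and control libraries. COL11A2, a cartilage fibrillar chain, had 0.922 to 1.56, 2.80 to 4.49 and 4.82 to 9.37 CPM (1.56 and 2.49). In SUZ12 KO cells COL8A2 rose to 4.12 to 19.8 CPM from 0.645 to 2.995 (2.58, adjusted p = 0.0119) and COL9A3 to 38.7 to 90.6 CPM from 20.7 to 34.0 (1.17, adjusted p = 0.0379). In EZH2 KO cells COL7A1 rose to 30.1 to 90.4 CPM from 16.2 to 22.1 (1.53, adjusted p = 0.0431).

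COL4A5 (ENSG00000188153, chromosome X, 108439838 to 108697545, + strand) had 0 counts in the 3 controls and in the 3 STAG2 KO libraries of experiment 2. It had 6.95, 17.6 and 1.15 CPM in EZH2 KO and 9.43, 12.6 and 4.34 CPM in SUZ12 KO libraries. Against a floor of 3 counts per library this was at least 55.5-fold higher in EZH2 KO and at least 57.0-fold higher in SUZ12 KO cells. As COL4A5 passed the filter on low counts only through KO libraries, it had to be higher there to be tested, and no p-value is given. COL4A6, which starts next to it on the other strand, had at most 0.721 CPM in EZH2 KO and 1.02 CPM in SUZ12 KO libraries. COL15A1, a basement membrane zone collagen related to COL18A1, had at most 3 counts in each control and 2.08, 2.995 and 1.86 CPM in EZH2 KO and 2.76, 3.23 and 3.96 CPM in SUZ12 KO libraries, at least 14.96-fold and 21.4-fold higher. COL6A5 was at least 5.23-fold and 9.07-fold higher, COL9A1 at least 3.96-fold and 9.46-fold, and COL14A1 at least 3.46-fold and 5.81-fold. COL28A1 had 0.161 to 0.307 CPM in controls, 1.77 to 2.90 CPM in EZH2 KO and 1.66 to 2.82 CPM in SUZ12 KO libraries (3.25 and 3.14). Of these 7, COL6A5 and COL14A1 had no promoter entry, and the 300-base windows of the others ran from 1 CG in COL28A1 to 45 in COL15A1.

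**Figure D4:**
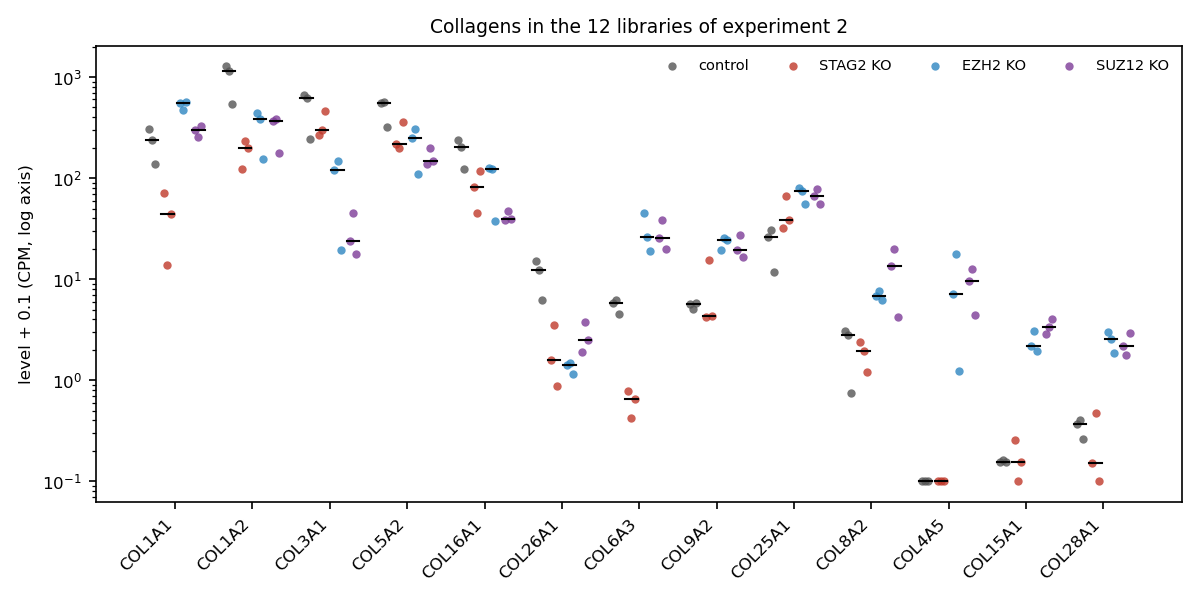
Level of 13 collagens (CPM plus 0.1, log axis) in the 12 libraries of experiment 2, 3 each of control, STAG2 KO, EZH2 KO and SUZ12 KO cells, with bars at the medians. COL3A1 is lowest in SUZ12 KO libraries (17.6 to 44.9 CPM), COL6A3 is below the controls in STAG2 KO and above them in both PRC2 KOs, and COL4A5 is at 0 in control and STAG2 KO libraries.

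STAG2 KO and PRC2 KO cells were compared directly within experiment 2. Of the 26 members tested that did not pass the filter through PRC2 KO libraries alone, 12 differed, 9 of them lower and 3 higher in STAG2 KO cells, where 29.7% of all 15130 genes in the test differed. Of the other 7, which had to be higher in PRC2 KO cells to be tested, 6 were called lower in STAG2 KO cells. For COL6A3 the log2 difference, STAG2 KO minus PRC2 KO, was −5.80 (SE 0.435, adjusted p = 8.47e-06), and for COL1A1 it was −3.23 (SE 0.445, adjusted p = 0.000375). COL2A1 (−4.49), COL7A1 (−2.31, adjusted p = 0.00277) and COL6A2 (−1.19, adjusted p = 0.0201) were lower in STAG2 KO cells as well. COL2A1, among the 9, passed the filter on low counts without any STAG2 KO library, so no p-value is given for it. COL3A1 was higher in STAG2 KO than in PRC2 KO cells (2.69, SE 0.509, adjusted p = 0.00254), and so were COL12A1 (2.01, adjusted p = 0.0124) and COL8A1 (1.72, adjusted p = 0.0378). For COL1A2 the difference was −0.82 (SE 0.394, adjusted p = 0.141), for COL26A1 0.07 (SE 0.453, adjusted p = 0.928) and for COL5A1 0.24 (SE 0.335, adjusted p = 0.619).

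The balance of the type I chains, a comparison chosen after the values were seen, ranged widely. On the scale of CPM per kilobase of exon, the level of COL1A1 was 0.0954 to 0.310 times that of COL1A2 in the 6 STAG2-proficient libraries of experiments 1 and 2 and 0.0416 and 0.0542 times in the controls of experiment 3. It was 0.214 to 0.595 times in STAG1 KO, 0.784 to 2.23 times in SUZ12 KO and 1.49 to 4.41 times in EZH2 KO libraries. In STAG2 KO libraries it ran from 0.0722 times in that labelled 5 of experiment 2 to 8.33 times in that labelled 24. In SK-N-MC it was 0.434 times in the WT and 11.3 times in the KO library.

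Among synthesis genes in PRC2 KO cells, P4HA2, a prolyl 4-hydroxylase subunit, rose most (log2 fold change 3.36, adjusted p = 0.0155, in EZH2 KO and 2.95, adjusted p = 0.0205, in SUZ12 KO cells). Of 33 tested in EZH2 KO cells it alone was higher, and 3 were lower, beside 12% and 3.69% of all genes. The 3 were P4HA1 (−1.05, adjusted p = 0.0133), PLOD1 (−0.85, adjusted p = 0.0266) and CRTAP, a partner of prolyl 3-hydroxylase (−0.42, adjusted p = 0.0337). In SUZ12 KO cells 2 were higher and 9 lower, beside 14.7% and 5.87% of all genes. CREB3L1 (−2.93, adjusted p = 0.0176) and LOXL1 (−1.57, adjusted p = 0.00556) fell most there, and PLOD2 was also higher (0.71, adjusted p = 0.0124). ITGA1 was lower in EZH2 KO (−2.52, adjusted p = 0.00387) and SUZ12 KO cells (−3.13, adjusted p = 0.000996), ITGA2 was higher (2.996, adjusted p = 0.0356, and 3.27, adjusted p = 0.0195), and ITGB1 was lower in SUZ12 KO cells (−0.82, adjusted p = 0.0163). The summed level of the 10 mesenchymal genes was 6918 to 7355 CPM in the controls of experiment 2 and 2668 to 4164 CPM in PRC2 KO libraries. Of these genes 2 were higher in EZH2 KO cells, and 1 was higher and 2 were lower in SUZ12 KO cells, and their part was not tested. PECAM1, an endothelial marker, had 0.381 to 0.492 CPM in these controls, 1.61 to 1.84 in EZH2 KO and 1.08 to 4.13 in SUZ12 KO libraries, and EPCAM had 0.0537 to 0.163, 0.0966 to 0.388 and 0.580 to 2.24 CPM. CDH5 and KRT5 had at most 1.40 and 0.0555 CPM in PRC2 KO libraries. Without WT clone library 1 or without library 2 the EZH2 KO count went from 16 to 7, and without library 1 the SUZ12 KO count went from 22 to 14. Over all genes the EZH2 KO calls went from 2377 of 15130 to 1169 of 15538 and 1227 of 15542. The SUZ12 KO calls went from 3112 of 15130 to 1874 of 15538.

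The unedited clone itself differed from its parent. Of 27 members tested over experiments 1 to 3 (5 WT clone and 3 parental libraries), 6 were higher in the WT clone, where 1.76% of all 14167 genes in the test were higher. None was lower at an adjusted p under 0.05 by edgeR or DESeq2, where 0.96% of all genes were lower by edgeR, a share to which 0 of 27 is close. At an unadjusted p under 0.05 none was lower either, where 2320 of all 14167 genes passed in both directions together. COL25A1 had 62.1, 58.9, 25.9, 30.7 and 57.7 CPM in WT clone libraries (2, 2 and 1 from experiments 1, 2 and 3) and 19.8, 11.6 and 32.7 CPM in parental libraries of these experiments (log2 fold change 1.26, SE 0.142, adjusted p = 0.00333). In each experiment the WT clone libraries were above the parental library, although the groups overlapped across experiments. COL8A2 (1.34, adjusted p = 0.0203), COL18A1 (0.98, adjusted p = 0.0491), COL21A1 (0.87, adjusted p = 0.00369), COL1A2 (0.68, adjusted p = 0.0365) and COL5A1 (0.64, adjusted p = 0.0132) were the others. With the WT clone as the only control, 10 members were lower in STAG2 KO cells, all among the 13, beside 650 of all 13562 genes. The count of 6 became 2 without WT clone library 1 or without the parental library of experiment 2, 3 without WT clone library 2 of that experiment, and 11 without either library of experiment 3. Over all genes 385 of 14167 were called, and 98 of 14058 and 211 of 14441 in the fits that gave 2. The fit that gave 3 called 102 of 14134, and those that gave 11 called 953 of 14302 and 924 of 14031. Summing both libraries of the WT clone in experiment 1 left 4 called, beside 185 of 14075 genes. Of 32 synthesis genes 4 were higher, PCOLCE2 (1.06, adjusted p = 0.0365) and LOX, a lysyl oxidase (0.86, adjusted p = 0.0164), most, and of 7 receptor genes ITGA1 was higher (1.04, adjusted p = 0.0406). Of the mesenchymal genes FBLN1 (0.63) and POSTN (3.26) were higher.

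**Figure D5:**
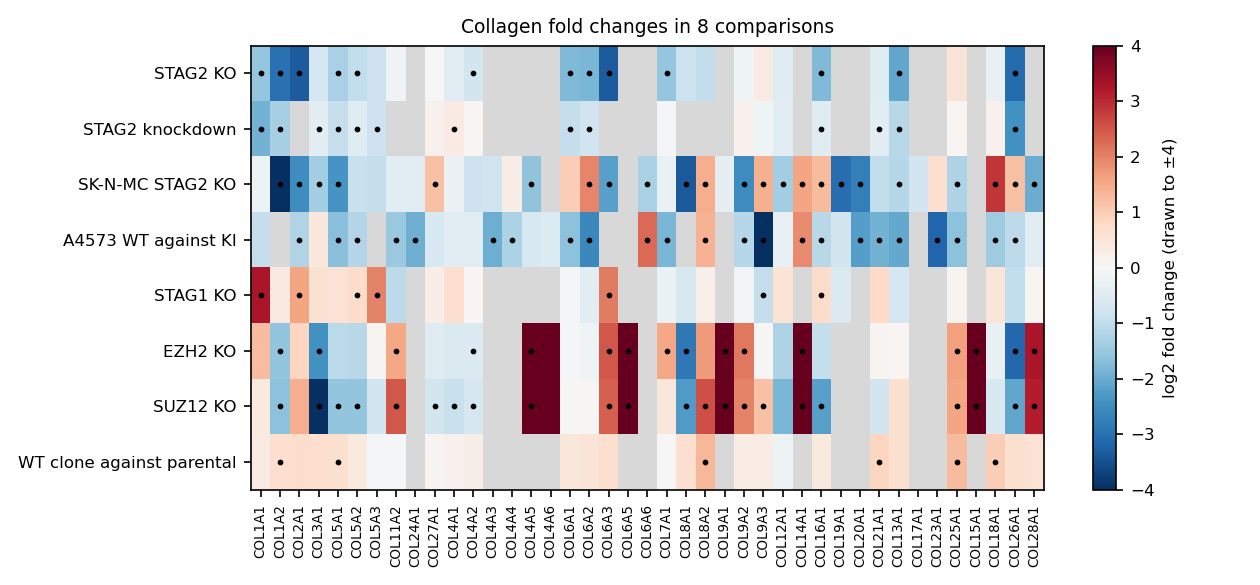
Log2 fold change (color, drawn to ±4) of the 41 collagens compared at least once in 8 comparisons, with a dot where a member was called (adjusted p under 0.05, or past 2-fold in the isogenic pairs) and grey where it was not tested. The STAG2 KO row of A673 is mostly blue and has dots on 13 blue cells, the row of the WT clone against parental has dots on red cells alone, and the EZH2 and SUZ12 rows hold deep red cells of members near 0 in the controls.

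The members not described so far were at low levels in A673. COL11A1, COL10A1 and COL22A1 were compared in none of these 8 comparisons, and COL4A3, COL4A4, COL6A6, COL17A1, COL19A1, COL20A1, COL23A1 and COL24A1 had at most 0.986 CPM in any A673 clone library. In the isogenic lines COL24A1, a fibrillar chain, had 9.83 and 7.27 CPM in SK-N-MC WT and KO and 2.09 and 8.34 CPM in A4573 without and with STAG2. The libraries carry no strand, so that reads of 11 members that share exons with a gene on the other strand, COL1A1, COL4A2, COL5A1, COL9A3, COL16A1 and COL18A1 among them, cannot be told apart from reads of that gene.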

How the data were processed

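The authors counted reads of non-directional oligo-dT libraries aligned to hg38 and deposited whole-number counts per gene symbol for all samples but the knockdown. The submitters' notes name TopHat2 version 2.0.0, SAMtools 0.1.16, and as the read mapper Bowtie 0.12.7. For the knockdown the authors deposited a signal, reads divided by 1 factor per library, from which 100% of values gave whole reads (tolerance 1e-04). Its normalization is not given in the sources used here. The columns of the STAG2 KO libraries of experiment 1 and of the STAG1 KO libraries could be matched to their genotype only, and are named by the number in the table.

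Counts were tested in R 4.3.3 with edgeR 4.0.16 (TMM, filterByExpr by condition, quasi-likelihood test, experiment as a term where several enter) and knockdown values with limma 3.58.1 on log2(value + 1), so that folds of low genes are understated. Calls had a Benjamini-Hochberg adjusted p under 0.05 over all genes tested. Isogenic libraries were set side by side on the log2 CPM scale (prior count 2, at least 10 counts in the pair) and called past 2-fold. STAG2 KO used experiments 1 and 2, EZH2 KO and SUZ12 KO the 12 libraries of experiment 2, and STAG1 KO experiment 3. Printed CPM were scaled over the 22 A673 clone libraries together. A fold against a group with at most 3 counts in each library is a lower bound against 3 counts. Levels per kilobase used the union of GENCODE exons. No source used here says that the libraries of the WT clone or of the knockdown came from separate cultures, and p-values then measure the spread between these samples, which may be technical.

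The members and gene lists were chosen with earlier results of these data known. Of the called members, those averaging at least 5 CPM (50 normalized reads in the knockdown) were named, at most 10 per comparison, with their partner chains, the 5 highest per kilobase, and the 2 highest and 2 lowest called genes of the synthesis and receptor lists. Members named beyond these were chosen after their values were seen. Alternatives were DESeq2 1.42.0 and its size factors, no filter, leaving out the experiment term, single experiments, the WT clone without the parental line, other pseudocounts, prior counts and minimums, recovered reads, a replicate block, leaving out each library and, after the data were seen, summing both WT clone libraries of experiment 1. The procedure was tested on simulated data.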

Additional observations from a re-analysis of the deposited data

Results flagged for a closer look

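Of 39 groups of 5 or 6 libraries looked at for the members named in the comparisons of STAG2 KO and of the WT clone, 4 held a library far from the others, where chance gives about 1 in 20. In STAG2 KO libraries, clone 5 of experiment 2 stood above the other 4 for COL13A1 (4.74 CPM) and for COL6A1 (99.3 CPM). In WT clone libraries, which span 3 experiments, library 1 of experiment 2 was highest for COL18A1 (47.6 CPM) and the library of experiment 3 for COL5A1 (427 CPM).

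For 6 members the effect of STAG2 KO differed from that of STAG1 KO by a test of the difference itself. The STAG2 KO effect was lower by a log2 difference of −5.46 for COL6A3, −4.94 for COL2A1, −4.86 for COL1A1, −3.41 for COL1A2, −1.93 for COL5A1 and −1.76 for COL5A2. Of these, COL2A1 passed the filter on low counts without any STAG2 KO library. The effects of STAG2 KO and of STAG1 KO both include the experiments in which they were measured.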

How the results depend on the processing

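With experiment 2 alone, 3 collagens were called in STAG2 KO cells in place of 13. Over all genes that fit called 494 of 13383 in place of 1687 of 13574. Leaving out each library in turn gave 8 to 13 called members in STAG2 KO, 7 to 14 in EZH2 KO, 14 to 20 in SUZ12 KO and 0 to 10 in STAG1 KO cells, 11 to 14 after knockdown and 2 to 11 between WT clone and parental. The 0 in STAG1 KO cells came from the fits that leave a single control library. It is not particular to the collagens, and no conclusion is drawn from it. With both control libraries kept, leaving out a STAG1 KO library gave 2 to 10. The comparison of WT clone and parental gave 10 members without a filter on low counts and 10 with DESeq2's test, in place of 6. The cause was not tested. Summing both WT clone libraries of experiment 1 into 1, an alternative added after the data were seen, left 9 members called in STAG2 KO cells and 4 between WT clone and parental. With a replicate block in the knockdown, 13 members were called as without it. Over all genes the block gave 2881 calls in place of 2476 of 12060. Samples of the same number deviated from their group means with correlations of 0.0257, 0.0372 and 0.00402. Whether they were paired cannot be told from these values. None of the members called in a tested comparison of a KO, the knockdown or the WT clone changed direction under its alternatives. Of the members that were not called, 9 of 13 did in STAG2 KO cells, 7 of 17 in EZH2 KO, 2 of 11 in SUZ12 KO and 9 of 21 in STAG1 KO cells, 4 of 8 after knockdown and 8 of 21 between WT clone and parental. In STAG2 KO cells COL5A3 (0.42) and COL27A1 (0.27) turned positive within experiment 1, COL12A1 within experiment 2 (0.46) and without an experiment term (0.11), COL27A1 also without WT clone library 1 of experiment 2 (0.02) and COL18A1 without the KO library labelled 24 (0.03). After knockdown COL4A2 turned to −0.06 without siC library 2. A single library per state leaves SK-N-MC and A4573 without a replicate check.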
